A study of Mus musculus with 8 samples.

Results

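The urea cycle was examined in the fasted liver through 8 genes, which are 6 enzymes and the pair of mitochondrial carriers that serve them. They were taken by gene symbol from the 45706 genes of the deposited table, and all 8 were found and passed the filter on low counts. None of the 8 passed the test between genotypes. In Cps1, Ass1, Asl and Arg1, 1 WT mouse was between 2.15 and 2.40 times the mean of the other WT mice, against 1.01 to 1.29 times in the other members. Mice of the same genotype spread more in these 4 genes than in the other members, but without that mouse the spread of Arg1 and Ass1 was close to that of Otc and Nags, and Cps1 and Asl still spread more.

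The cycle turns ammonia, which is toxic, into urea in hepatocytes around the portal vein, and its enzymes are divided between mitochondria and cytosol. It is more active when amino acids are burned for fuel, as during fasting, and glucagon and glucocorticoids are known to raise the mRNA of its enzymes. Nags makes N-acetylglutamate, the obligatory activator of Cps1. Cps1 joins ammonia and bicarbonate in the first step, Otc makes citrulline in the mitochondrion, and Ass1 and Asl convert it through argininosuccinate to arginine in the cytosol, which Arg1 splits into urea and ornithine. The carrier Slc25a15 exchanges ornithine and citrulline across the inner mitochondrial membrane. The carrier Slc25a13, also called citrin, exports the aspartate that Ass1 needs.

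Livers came from 4 WT and 4 PLIN5 S155A female mice, the latter homozygous and called SA/SA here, with 1 library per mouse. All 8 mice were of strain C57BL/6J, were 4 months old and were fasted overnight, so no fed liver stands beside them. The edit, made with CRISPR-Cas9 in the germline, put alanine in place of a serine of perilipin 5, a lipid droplet protein, and its sequence was checked in 1 founder. Whether loss of this phosphorylation site goes with a difference in liver gene expression is the question the comparison addresses. The labels name hepatocytes as the cell type, but Clec4f of Kupffer cells was between 69.9 and 138 CPM (counts per 1000000) and Stab2 of sinusoidal endothelium between 33.4 and 54.2 CPM in the 8 libraries. The values are therefore read as whole liver, in which fewer cells of a type and less RNA per cell cannot be told apart.

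Total estimated counts were between 39709785 and 54540864 per library. Expression is given as CPM after TMM normalization, a scaling that equalizes the bulk of genes between libraries. Of 14629 genes tested with edgeR's quasi-likelihood test, 0 passed an adjusted p of 0.05, and the smallest adjusted p was 0.758. Plin5 mRNA, the target of the edit, was at 254, 194, 183 and 194 CPM in WT replicates 1 to 4 and at 457, 276, 192 and 386 CPM in SA/SA replicates 1 to 4, and counts per gene cannot show the edit itself. By the animal numbers of the labels, replicates 1 and 4 of both genotypes belonged to a low series of numbers (under 200) and replicates 2 and 3 to a high one (over 800), whose meaning is not given.

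The 8 genes lie on 8 chromosomes of build GRCm38 in GENCODE release M21. Cps1 (ENSMUSG00000025991) is on chromosome 1 from 67123026 to 67231259 with 38 exons in its principal transcript. Otc (ENSMUSG00000031173) is on chromosome X from 10252305 to 10321024, and Ass1 (ENSMUSG00000076441) is on chromosome 2 from 31470207 to 31520672. Asl (ENSMUSG00000025533) is on chromosome 5 from 130011258 to 130029247, and Arg1 (ENSMUSG00000019987) is on chromosome 10 from 24915221 to 24927484, both on the reverse strand. Nags (ENSMUSG00000048217) is on chromosome 11 from 102145513 to 102149477 and overlaps Gm11586, annotated on the opposite strand, so its counts are less certain, since whether the counting used strand is not given in the sources used here. Slc25a15 (ENSMUSG00000031482) is on chromosome 8 from 22375551 to 22398597, and Slc25a13 (ENSMUSG00000015112) is on chromosome 6 from 6041218 to 6217173. No annotated gene overlaps the 7 members other than Nags.

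The bases before the start of Ass1 and Otc, enzymes of successive steps, are shown. These 2 were chosen because they held the most and the fewest CG dinucleotides of the members with an entry. They also differed in the ratio of WT replicate 1 to the other WT mice, at 2.15 in Ass1 and 1.24 in Otc. A relation between CG dinucleotides and this ratio was not tested, and Cps1, Asl and Arg1 had no entry. Promoters were taken from RefSeq (GRCm38.p6), where 5 of the 8 members matched, namely Otc, Ass1, Nags, Slc25a15 and Slc25a13. Both sequences are on the forward strand and read 5′ to 3′ toward the gene, and capitals mark CG dinucleotides. The Ass1 stretch is chr2:31470020-31470206 and was shortened to end before the annotated gene, and the Otc stretch is chrX:10252055-10252304.
Ass1: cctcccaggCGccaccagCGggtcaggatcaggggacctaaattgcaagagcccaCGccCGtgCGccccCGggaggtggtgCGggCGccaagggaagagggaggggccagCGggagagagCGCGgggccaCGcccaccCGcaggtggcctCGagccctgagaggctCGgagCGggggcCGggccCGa
Otc: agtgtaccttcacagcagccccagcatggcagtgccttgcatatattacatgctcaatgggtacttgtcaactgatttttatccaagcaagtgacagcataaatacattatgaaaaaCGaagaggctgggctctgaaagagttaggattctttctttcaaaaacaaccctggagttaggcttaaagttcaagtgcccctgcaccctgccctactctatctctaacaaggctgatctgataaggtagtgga
The Ass1 stretch held 18 CG dinucleotides in 187 bases and was 75.4% G and C. The Otc stretch held 1 CG dinucleotide in 250 bases and was 43.6% G and C. Over 32817 mouse promoters of 250 bases the median was 52.4% G and C with 6 CG dinucleotides, and 18.8% of promoters held at most 1. Nags, Slc25a15 and Slc25a13 each held 11 in 250 bases.

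Per kilobase of the principal transcript, which allows genes to be compared, Ass1 was the most abundant member in WT liver at 1241 ± 566 CPM per kb (SD, n = 4), ahead of Arg1 at 956 ± 498 CPM per kb. Cps1 followed at 542 ± 276 and Asl at 495 ± 243 CPM per kb. These 4 cytosolic and mitochondrial enzymes overlapped with their neighbours in the order. All 4 WT mice had more Asl per kilobase (at least 327) than Slc25a15 (at most 145), which was at 121 ± 20.3 CPM per kb and overlapped Otc at 94.5 ± 14.9. Slc25a13 was at 57.5 ± 4.71 CPM per kb and Nags was lowest at 42.7 ± 7.46 CPM per kb. The lengths are those of the annotation, since the lengths the authors used are not given in the sources used here. In CPM without the length scale, the 8 genes together ran from 5842 CPM in WT replicate 3 to 14382 CPM in WT replicate 1.

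**Figure D1:**
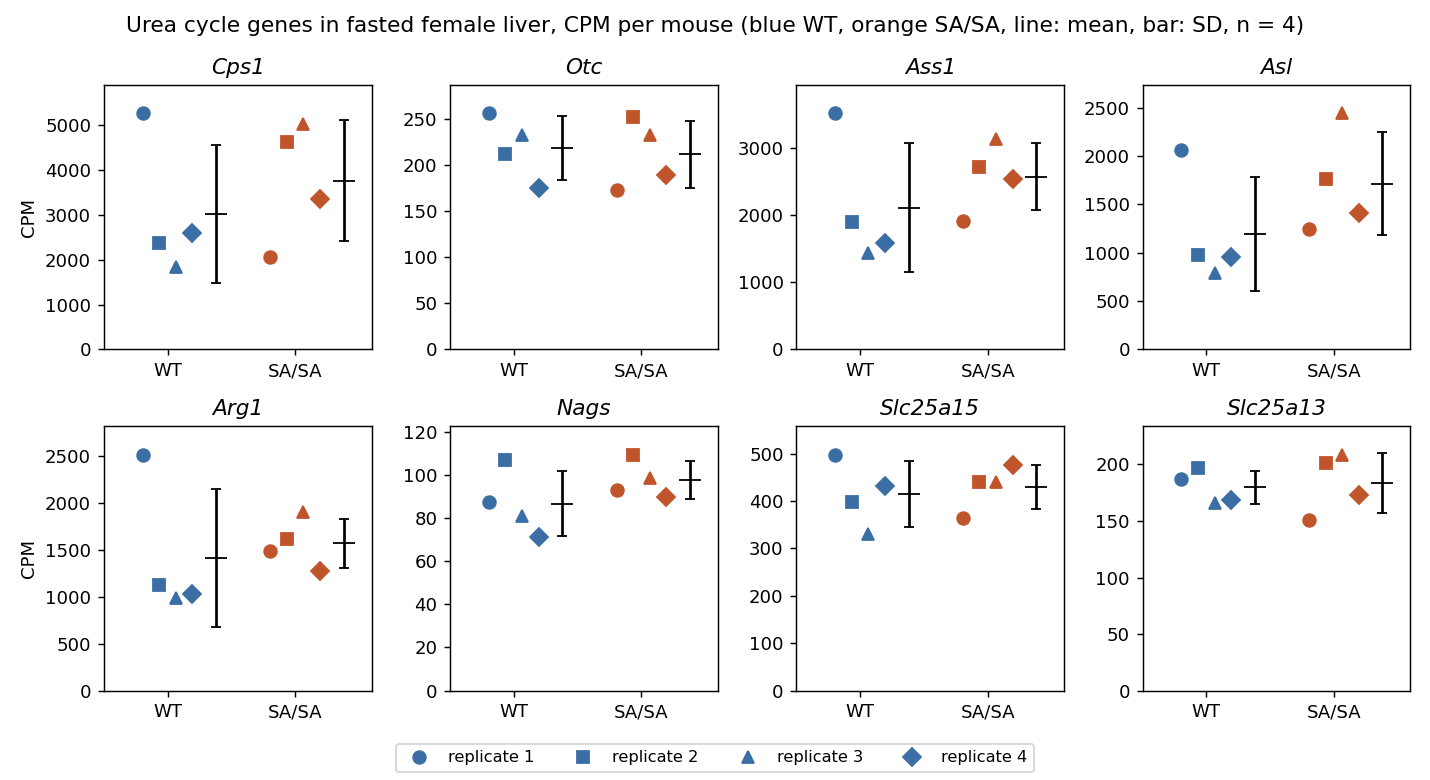
CPM of each of the 8 urea cycle genes (vertical axes, from 0) in each WT (blue) and SA/SA (orange) mouse, with the replicate given by the marker shape, and the mean with its SD beside each group of 4. WT replicate 1 is the highest WT mouse in Cps1, Ass1, Asl and Arg1, at 2.15 to 2.40 times the mean of the others, and also in Otc and Slc25a15, at 1.24 and 1.29 times.

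Cps1, the mitochondrial entry enzyme, was at 5262, 2369, 1829 and 2590 CPM in WT replicates 1 to 4. In SA/SA replicates 1 to 4 it was at 2065, 4617, 5032 and 3341 CPM. WT replicate 1 was the highest of all 8 mice and the 3 other WT mice were among the 4 lowest, so the genotypes overlapped. The log2 fold change of SA/SA against WT was 0.32 (standard error 0.35, 95% interval -0.46 to 1.11, adjusted p = 0.993 from edgeR), with p = 0.457 in a two-sided exact permutation test, where 0.0286 is the smallest p that 4 against 4 allow. In fold terms the interval ran from 0.725 to 2.15.

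Otc, which follows Cps1 in the mitochondrion, was at 257, 212, 233 and 175 CPM in the WT mice. It was at 174, 252, 233 and 190 CPM in the SA/SA mice. The ranges nearly coincided. Its log2 fold change was -0.047 (standard error 0.15, 95% interval -0.39 to 0.30), a fold between 0.762 and 1.23. Nags was at 87.5, 107, 81.1 and 71.1 CPM in WT and at 92.9, 109, 98.5 and 89.7 CPM in SA/SA mice. The SA/SA mice were the less spread group for this gene, and WT replicate 2 lay among them. The log2 fold change of Nags was 0.17 (standard error 0.13, 95% interval -0.13 to 0.47).

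Ass1, which condenses citrulline with aspartate, was at 3513, 1897, 1427 and 1582 CPM in WT and at 1915, 2720, 3124 and 2530 CPM in SA/SA mice. The 4 SA/SA mice were all above WT replicates 2 to 4, by a narrow margin for SA/SA replicate 1, and all below WT replicate 1. The log2 fold change of Ass1 was 0.29 (standard error 0.28, 95% interval -0.32 to 0.90).

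Asl, which splits argininosuccinate into arginine and fumarate, had the largest fitted log2 fold change of the 8 genes. It was at 2065, 972, 790 and 952 CPM in WT replicates 1 to 4 and at 1245, 1762, 2442 and 1410 CPM in SA/SA replicates 1 to 4. Every SA/SA mouse exceeded WT replicates 2 to 4, and WT replicate 1 exceeded all SA/SA mice but replicate 3. The log2 fold change was 0.52, or 1.44-fold (standard error 0.31, 95% interval -0.18 to 1.22, adjusted p = 0.993 from edgeR; two-sided exact permutation test, p = 0.171). Arg1, the enzyme that releases urea, was at 2512, 1126, 986 and 1024 CPM in WT and at 1482, 1617, 1898 and 1268 CPM in SA/SA mice. Here WT replicate 1 was the highest of all 8 mice, and the 3 other WT mice were the lowest. The log2 fold change of Arg1 was 0.15 (standard error 0.29, 95% interval -0.50 to 0.80).

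Slc25a15, the ornithine carrier, was at 498, 397, 332 and 431 CPM in WT and at 363, 441, 440 and 476 CPM in SA/SA mice. Slc25a13, the aspartate carrier, was at 187, 196, 166 and 169 CPM in WT and at 151, 202, 209 and 173 CPM in SA/SA mice. The ranges of both genotypes overlapped widely, and SA/SA replicate 1 was the lowest mouse for Slc25a13 and WT replicate 3 for Slc25a15. The log2 fold changes were 0.052 (standard error 0.14, 95% interval -0.26 to 0.36) for Slc25a15 and 0.032 (standard error 0.12, 95% interval -0.24 to 0.31) for Slc25a13.

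As a list, 0 of 8 members passed an adjusted p of 0.05 in edgeR's quasi-likelihood test, beside 0% of all genes tested. At an unadjusted p under 0.05 there were also 0 of 8, beside 3.40% of all genes, and DESeq2 and limma-voom each gave 0 of 8 on both counts. No member had groups that did not overlap, beside 2.30% of all genes. The fitted log2 fold change was above 0 in 7 members, beside 7138 of all 14629 genes tested, and below 0 in Otc. Slc25a13 was at -0.011 when scaled by library size alone. The median of the members was 0.16, where the median over all genes tested was -0.0050. The 8 genes are not independent of each other, so the count of 7 is a description. The 95% intervals of Cps1 and Asl include a 2-fold difference, while those of Otc, Nags, Slc25a15 and Slc25a13 end at 1.38-fold or less.

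**Figure D2:**
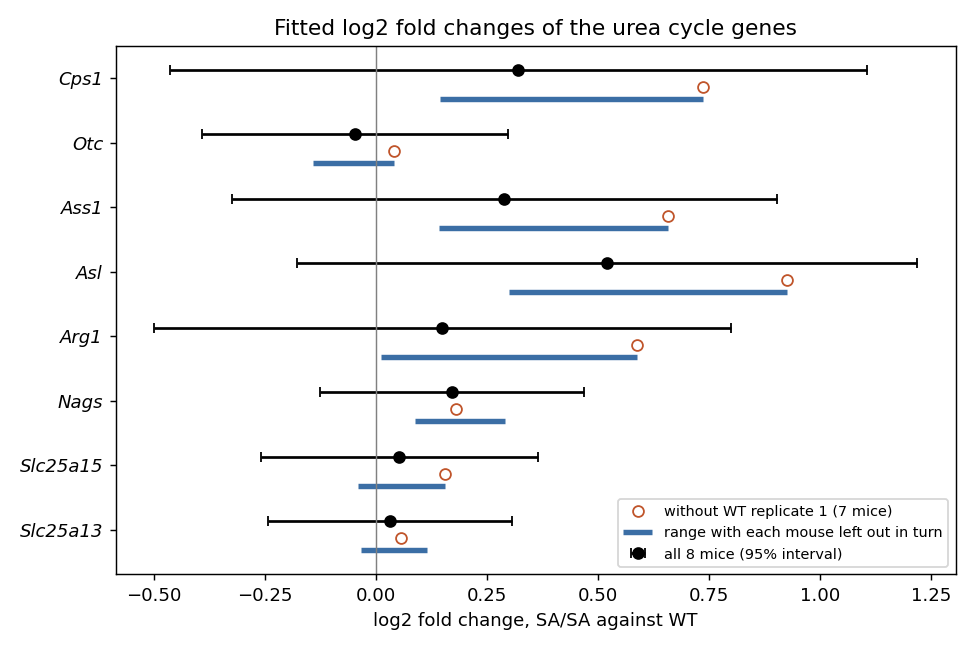
Fitted log2 fold change of SA/SA against WT for each urea cycle gene (horizontal axis), with the 95% interval over all 8 mice in black, the value without WT replicate 1 as an open circle, and the range with each mouse left out in turn as a blue bar. All 8 intervals include 0, and leaving out WT replicate 1 moves Cps1, Ass1, Asl and Arg1 to values between 0.59 and 0.93.

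WT replicate 1 was the mouse whose removal moved the fitted log2 fold changes of Cps1, Ass1, Asl and Arg1 the most. It was 2.33 times the mean of the 3 other WT mice for Cps1, 2.15 times for Ass1, 2.28 times for Asl and 2.40 times for Arg1. For the other members this ratio was 1.24 for Otc, 1.01 for Nags, 1.29 for Slc25a15 and 1.06 for Slc25a13. Of the 2507 tested genes with a mean of at least 50 CPM, 21 genes, or 0.838%, were at least 2-fold above the other WT mice in this mouse, and these 4 enzymes were among them. The 4 were grouped after their values were seen.

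Without WT replicate 1, the log2 fold change was 0.74 for Cps1 (standard error 0.29), 0.66 for Ass1 (standard error 0.18), 0.93 for Asl (standard error 0.23) and 0.59 for Arg1 (standard error 0.15). The mean of the 3 WT mice left was 2263 ± 392 CPM for Cps1, 1635 ± 240 for Ass1, 905 ± 100.0 for Asl and 1045 ± 72.6 for Arg1 (SD, n = 3). Asl, Arg1 and Ass1 then had no overlap between genotypes, 3 of 8 members beside 2.63% of 14844 genes in which every SA/SA mouse was above every WT mouse. The unadjusted p was under 0.05 for 4 of 8 members, all of them above 0, beside 2.01% of genes that passed it in this direction. Leaving out any other mouse gave 0 or 1 of 8. WT replicate 1 was singled out because it was extreme in these same genes, so the separation and the p-values without it are a description and no evidence of a difference between genotypes. None of the 8 passed the adjusted threshold, beside 0% of all genes, with an adjusted p of 0.963 for each of the 4 in edgeR. Otc was at 0.042, Nags at 0.18, Slc25a15 at 0.16 and Slc25a13 at 0.057 without this mouse. The median log2 fold change of the 8 was 0.38 without it.

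Within the animal series the differences of these 4 genes had opposite signs. In the low series, which holds WT replicate 1, the difference in mean log2 CPM of SA/SA against WT was -0.49 for Cps1, -0.099 for Ass1, -0.082 for Asl and -0.23 for Arg1. In the high series it was 1.21, 0.83, 1.24 and 0.73 for the same genes. The other members differed by -0.22 and 0.13 (Otc), 0.21 and 0.16 (Nags), -0.16 and 0.28 (Slc25a15) and -0.14 and 0.18 (Slc25a13) in the low and high series. In the low series WT replicate 1 was above both SA/SA mice in Cps1, Ass1, Asl and Arg1. WT replicate 4, the other WT mouse there, was below both in Ass1, Asl and Arg1 and between them in Cps1. The negative low-series values of Ass1, Asl and Arg1 thus rest on WT replicate 1. Each series holds 2 mice per genotype, and the difference between the series was not tested.

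The spread between mice of 1 genotype was measured as the pooled SD of log2 CPM. It was 0.62 for Cps1, 0.53 for Asl, 0.48 for Arg1 and 0.46 for Ass1. Much of this rested on WT replicate 1, without which the SD was 0.48 for Cps1, 0.35 for Asl, 0.20 for Arg1 and 0.27 for Ass1. For the other members it was 0.24 for Otc, 0.21 for Slc25a15, 0.20 for Nags and 0.17 for Slc25a13, and without that mouse it was 0.23, 0.18, 0.21 and 0.19. Among the 2507 tested genes with a mean of at least 50 CPM the median was 0.17, and 96.5% of them had a smaller spread than Cps1. The corresponding share was 93.2% for Ass1, 94.8% for Asl and 94.0% for Arg1, and 72.2% for Otc, 62.6% for Slc25a15, 58.7% for Nags and 50.1% for Slc25a13. Without WT replicate 1 the share was 94.0% for Cps1, 87.0% for Asl, 77.3% for Ass1 and 62.9% for Arg1, beside 71.9% for Otc and 67.3% for Nags.

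**Figure D3:**
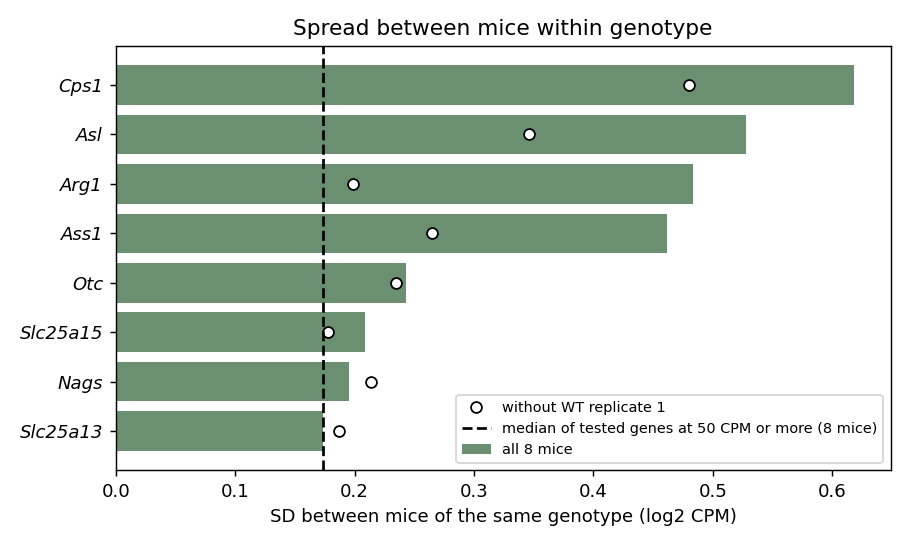
Pooled SD of log2 CPM between mice of the same genotype for each urea cycle gene (horizontal bars, from 0), with the median of the 2507 tested genes of at least 50 CPM as a dashed line and the SD without WT replicate 1 as open circles. With all mice Cps1, Asl, Arg1 and Ass1 lie at 0.46 or more and the 4 other members between 0.17 and 0.24, and without WT replicate 1 Arg1 lies at 0.20 and Ass1 at 0.27.

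Cps1, Ass1, Asl and Arg1 were high and low in much the same mice. The likeness of a pair of genes was measured as the root-mean-square distance between their log2 CPM over the 8 mice, each scaled to a mean of 0 and an SD of 1, which is 0 for identical profiles and 1.32 for unrelated ones. Ass1 and Asl were the closest of the 28 pairs of members at 0.27. The 6 pairs among Cps1, Ass1, Asl and Arg1 lay between 0.27 and 0.56, and the 16 pairs of 1 of these with another member lay between 0.53 (Cps1 and Slc25a15) and 1.07 (Cps1 and Nags). Without WT replicate 1 the 6 pairs lay between 0.26 and 0.63 and the 16 pairs between 0.60 and 1.08. Otc followed none of them closely, with its nearest member being Slc25a13 at 0.73. The ratio of Cps1 to Otc in CPM ranged from 7.87 in WT replicate 3 to 21.6 in SA/SA replicate 3.

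Outside the members, the genes closest to the mean profile of the 8 were Adhfe1 at a distance of 0.20, Arf1 at 0.20, Gls2 at 0.22, Msl3 at 0.22 and Pex2 at 0.24, over 8 mice. Gls2 is the glutaminase of liver mitochondria, which releases ammonia from glutamine. It was at 368, 305, 252 and 258 CPM in WT and at 256, 326, 368 and 295 CPM in SA/SA mice. Gls2 was picked for its nearness to the members' profile over these same mice, so sharing their highest mice follows from that choice. The 2 highest mice for Gls2, WT replicate 1 and SA/SA replicate 3, were also the highest for the summed CPM of the members, with 14382 and 13475 CPM. The summed CPM of the 6 other mice ran from 5842 to 11721.

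**Figure D4:**
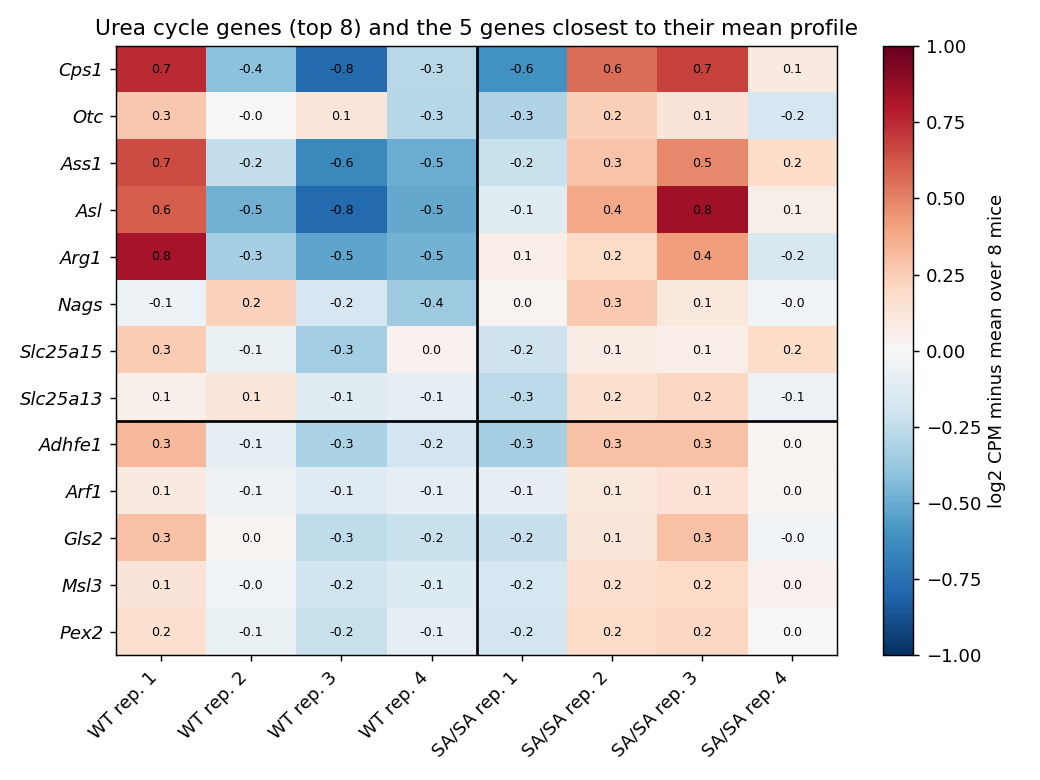
Log2 CPM of each gene minus its mean over the 8 mice (colour and printed value), for the 8 urea cycle genes above the black line and the 5 genes closest to their mean profile below it, with WT mice left and SA/SA mice right of the vertical line. WT replicate 1 and SA/SA replicates 2 and 3 are above the mean in Cps1, Ass1, Asl and Arg1, and WT replicates 2 to 4 are below it.

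Genes that feed nitrogen into the cycle were read from a list of 25, all of which were tested. None passed an adjusted p of 0.05 in edgeR, and 0 of 25 had an unadjusted p under 0.05, beside 3.40% of all genes tested. The log2 fold change was above 0 in 17 of them, beside 7138 of all 14629 genes, with a median of 0.073. Oat, which links ornithine to glutamate in pericentral hepatocytes, was the highest at 0.48 (standard error 0.22), from 1848 ± 527 CPM in WT to 2579 ± 631 in SA/SA livers (SD, n = 4). Without WT replicate 1 no WT mouse reached the SA/SA range of Oat, and the log2 fold change was 0.69. Of 14844 genes, 2.63% had every SA/SA mouse above every WT mouse in that setting. Oat was named as the highest of the 25, and WT replicate 1 was singled out after its values were seen. The separation of Oat is thus a description and no evidence of a difference between genotypes. The lowest was Gldc, a subunit of the glycine cleavage system that releases ammonia from glycine, at -0.39 (standard error 0.33). Glul, which fixes ammonia that escapes the cycle as glutamine, was at 948 ± 136 CPM in WT and 1031 ± 76.1 CPM in SA/SA mice, with a log2 fold change of 0.12 (standard error 0.12). In WT replicate 1, 17 of the 25 genes were above the mean of the other WT mice. Their median ratio was 1.21, against a median of 0.984 over all genes tested. At least 2-fold above that mean were 0 of 25, beside 2.41% of all genes tested.

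The side branches and paralogs gave 14 tested genes of 17. None passed an adjusted p of 0.05 in edgeR, and 1 had an unadjusted p under 0.05, beside 3.40% of all genes tested. This was Slc25a29, a mitochondrial carrier of basic amino acids, at 4.05, 5.62, 2.99 and 2.94 CPM in WT and at 6.08, 6.14, 6.31 and 5.44 CPM in SA/SA mice. WT replicate 2 lay within the SA/SA range. The log2 fold change of Slc25a29 was 0.62 (standard error 0.22, adjusted p = 0.993 from edgeR; two-sided exact permutation test, p = 0.0571). Ddah2, which breaks down methylated arginine, was the lowest of this list at -0.38 (standard error 0.31).

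The paralogs of members were scarce in these livers. Arg2, the mitochondrial arginase, was at 0.414 ± 0.0945 CPM in WT and 0.584 ± 0.270 in SA/SA livers (SD, n = 4 each), which is 0.290 CPM per kb in WT beside 956 for Arg1. Slc25a12, the aspartate carrier of muscle and brain, was at 14.4 ± 3.26 and 15.1 ± 2.21 CPM, or 2.27 CPM per kb in WT beside 57.5 for Slc25a13. Slc25a2, the second ornithine carrier, was between 0.0559 and 0.593 CPM in the 8 mice and did not pass the filter. All of these paralogs overlap other genes on the opposite strand.

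Membrane transporters of amino acids, ammonia and urea gave 13 tested genes of 16. Of these, 0 were called and 0 had an unadjusted p under 0.05, beside 3.40% of all genes tested. Their median log2 fold change was 0.066. The range ran from -0.80 (standard error 0.75) for Aqp3, a water and glycerol channel at under 1 CPM on average in both genotypes, to 0.85 (standard error 0.41) for Slc43a1, a carrier of branched-chain amino acids. SA/SA replicate 3 had 15.2 CPM of Slc43a1, and no other mouse exceeded 7.82 CPM. The 18 regulators of the cycle were all tested, with 0 called, 0 at an unadjusted p under 0.05 (3.40% of all genes) and a median of 0.067. Cebpb, a transcription factor of the acute phase and of gluconeogenesis, was highest at 0.67 (standard error 0.31), and Creb1, the cAMP-responsive factor, was lowest at -0.37 (standard error 0.22). Cebpb was at 30.6, 55.6, 37.4 and 30.2 CPM in WT replicates 1 to 4. In SA/SA replicates 1 to 4 it was at 32.3, 84.1, 81.4 and 46.6 CPM. A relation of Cebpb to the members over the mice was not tested. For Creb1, WT replicate 1 was the highest mouse with 14.9 CPM, and the others ranged from 6.64 to 10.9 CPM.

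**Figure D5:**
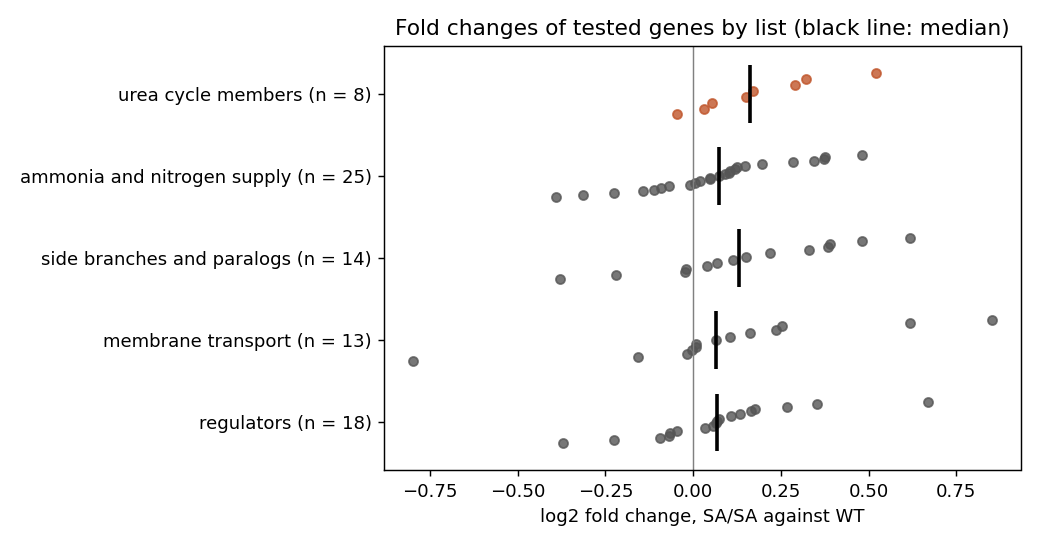
Fitted log2 fold change of SA/SA against WT (horizontal axis) of each tested gene, for the 8 urea cycle members and the 4 related lists, with 1 point per gene, spread vertically in rank order, and the median as a black line. The medians lie between 0.066 and 0.16, and no gene shown passed an adjusted p of 0.05.

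Markers of other cells were compared with the pattern of the 4 enzymes. The summed CPM of 10 hepatocyte markers was between 117369 and 132323 in WT and between 113972 and 154306 in SA/SA mice, with WT replicate 1 at 1.06 times the mean of the other WT mice. This sum and that of the 11 periportal markers were highest in WT replicate 1 among WT and in SA/SA replicate 3 among SA/SA mice. The summed CPM of the members was highest in the same mice. The periportal markers mark the zone in which the cycle runs and share Alb with the first list. In WT replicate 1, Alb alone was at 81341 CPM, where the hepatocyte sum was 132323 and the periportal sum 87721 CPM. Both sums thus largely follow Alb and are not separate readings. The 13 pericentral markers summed to 13217 CPM in WT replicate 1, within the WT range of 10549 to 13918 CPM. Among SA/SA mice their sum was also highest in replicate 3, at 18749 CPM. In WT replicate 1, 8 of the 11 periportal genes were above the mean of the other WT mice with a median ratio of 1.19. The ratios ran from 0.685 for Cyp2f2 to 1.84 for Hal. At least 2-fold above that mean were 0 of 11, beside 2.41% of all genes tested. Between genotypes, the 11 periportal markers had 0 called, 6 above 0 and a median log2 fold change of 0.020. The 13 pericentral markers had 0 called, 10 above 0 and a median of 0.14. Over all genes tested, 7138 of 14629 were above 0. Each list had 1 gene at an unadjusted p under 0.05 in edgeR, beside 3.40% of all genes. These were Cyp2f2 (periportal) at a log2 fold change of -0.60 and Lhpp (pericentral) at 0.40, both at an adjusted p of 0.993. The 10 macrophage markers summed to 307 CPM in WT replicate 1, within the WT range of 222 to 458 CPM. The SA/SA range was 244 to 503 CPM. The 8 endothelial markers summed to 165 CPM in WT replicate 1, within the WT range of 158 to 229 CPM and beside 128 to 179 CPM in SA/SA mice. The 6 red cell markers, which include Hbb-bs, summed to 411 CPM in WT replicate 1, the lowest of the 8 mice, where the WT range reached 2647 CPM and the SA/SA range was 951 to 1154 CPM. The 9 lymphocyte markers summed to 107 CPM in SA/SA replicate 3 and to between 11.4 and 20.2 CPM in WT mice. The part of hepatocyte, periportal, pericentral, macrophage, endothelial, red cell and lymphocyte RNA in the spread of the urea cycle genes was not tested. Umod of kidney was at 0 CPM in all 8 libraries, and Vil1 of intestine was between 0.0593 and 0.739 CPM. The list of 8 kidney and intestine markers summed to 141 to 160 CPM in WT and 123 to 179 CPM in SA/SA mice. The 9 pancreatic acinar markers summed to 4.27 to 40.8 CPM in WT, highest in replicate 2, and 4.49 to 6.58 CPM in SA/SA mice. The part of these lists in the spread was not tested either.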

How the data were processed

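The authors sequenced stranded mRNA libraries of 8 livers and deposited salmon's estimated counts for each gene, which were corrected for average transcript length but not for library size. The submitters' processing notes name STAR, DESeq2 and GRCm38 among tools and builds. Salmon's version, the annotation and the use of strand are not given in the sources used here. Table columns were matched to mice by animal number, and each mouse was 1 replicate. Counts were rounded to whole numbers, filtered with filterByExpr (14629 of 45706 genes kept) and tested with edgeR 4.0.16 (quasi-likelihood, TMM, Benjamini-Hochberg over all genes) in R 4.3.3. The 95% intervals use standard errors from the F statistic, and a prior count of 2 was added for log2 CPM. Alternatives were DESeq2 1.42.0, limma-voom (limma 3.58.1), other scalings and filters, blocks and leaving out each mouse. The spread with each mouse left out was added after seeing the data. Of all gene identifiers, 45143 are in GENCODE M21.

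The members and the lists were chosen with earlier results of these data known. Named were the 8 members, Plin5, the paralogs Arg2, Slc25a2 and Slc25a12, Glul, every gene of the 4 related lists at an unadjusted p under 0.05, the highest and lowest of each list, and the 5 genes with a mean of at least 10 CPM nearest to the members' mean profile. Genes named for a marker sum, for an unadjusted p in a marker list or for WT replicate 1 were chosen after their values were seen. The 8 libraries were not copies of each other, since the lowest chi-square per gene over 28 pairs was 40.2.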

Additional observations from a re-analysis of the deposited data

Results flagged for a closer look

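In 42 groups of 4 mice, made from the members, Plin5 and the genes named by rule for a related list, 5 had 1 mouse far from the 3 others by Dixon's test on CPM, where chance flags about 1 in 20 groups. For Asl, WT replicate 1 had 2065 CPM where its 3 WT companions had 790 to 972 CPM, with a gap of 0.857 of the group's range. For Arg1 it had 2512 CPM where they had 986 to 1126 CPM, with a gap of 0.908 of the range. For Plin5 it had 254 CPM where they had 183 to 194 CPM. For the paralog Slc25a12, SA/SA replicate 2 had 18.4 CPM where the rest of its genotype had 13.7 to 14.3 CPM. For Slc25a2, which did not pass the filter on low counts, WT replicate 3 had 0.358 CPM where the rest of its genotype had 0.0559 to 0.0598 CPM.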

How the results depend on the processing

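No member passed an adjusted p of 0.05 in any of the 18 alternatives, with a smallest adjusted p of 0.798. DESeq2 called 6 genes over the whole table, where every alternative run with edgeR and limma-voom called 0, and none of the 6 was a member. The median log2 fold change of the members was between 0.13 and 0.22 in the alternatives with all 8 mice, and between 0.077 (without WT replicate 3) and 0.38 (without WT replicate 1) with 1 mouse left out. With library size alone, Slc25a13 was at -0.011. Leaving out each mouse in turn, log2 fold changes lay from -0.14 to 0.042 for Otc, from -0.041 to 0.16 for Slc25a15, from -0.034 to 0.12 for Slc25a13, from -0.032 to 0.24 for Slc25a12 and from -1.14 to 0.29 for Aqp3. It ran from 0.14 to 0.74 for Cps1, from 0.14 to 0.66 for Ass1, from 0.30 to 0.93 for Asl and from 0.011 to 0.59 for Arg1, where leaving out WT replicate 1 gave each highest value and leaving out WT replicate 3 (for Asl, SA/SA replicate 3) each lowest. With the replicate number as a block (replicate block) the median was 0.22 and 0 genes were called, with 579 genes at an unadjusted p under 0.05 where 497 had it without the block. Deviations of same-numbered mice correlated at 0.056, 0.17, -0.11 and 0.13, and not every mouse correlated best with its own number, so the numbers were not taken as pairs. Of 358 recomputed values of single genes, 347 kept their direction and 11 reversed, and 0 crossed the threshold. Of the members' spreads with 1 mouse left out, added after seeing the data, those of Arg1 (0.48 to 0.20), Ass1 (0.46 to 0.27) and Asl (0.53 to 0.35) moved by over 1.5 times, without WT replicate 1. With 4 mice per genotype, the 95% interval of the fold was 0.725 to 2.15 for Cps1 and 0.885 to 2.33 for Asl.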

Other observations

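The 21 tested genes of at least 50 CPM that were at least 2-fold above the other WT mice in WT replicate 1 held 17 genes beside the 4 urea cycle enzymes, of which 8 are given here, chosen after their values were seen and with no test of a shared function. Saa1 was at 235 CPM in this mouse, at a mean of 32.5 CPM in the 3 other WT mice and at a mean of 78.5 CPM in SA/SA mice. The same values were 1457, 444 and 612 CPM for Serpina3n, 1145, 474 and 604 CPM for Fgl1, and 1523, 698 and 784 CPM for Lrg1. They were 158, 67.1 and 80.0 CPM for Apcs and 2053, 989 and 1128 CPM for Itih3. Aass, which starts the breakdown of lysine, was at 600.4, 228 and 313 CPM, and Bhmt, which remethylates homocysteine, at 13028, 5524 and 9300 CPM.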
